A study of Homo sapiens with 16 samples.

Results

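The neural cultures of day 30 (D30) gave 4 of the 16 RNA-seq libraries of the series: 2 of cultures treated with 40 µM TMG and 2 of cultures that received the solvent DMSO. They were picked by the column names of the count table, which match the library titles. For 8 of the 16 libraries, among them D30 DMSO replicate 2 and D30 TMG replicate 1, the labels also hold a treatment tag that contradicts the title. Within D30 that tag follows the replicate number, and it was not used to form groups. H9, a long-used line of human embryonic stem cells, was turned into neural cells in serum replacement medium with LDN-193189 and SB-431542, which block BMP and TGF-beta signals, and was then kept in neuronal medium. TMG (Thiamet-G) inhibits OGA, and by the titles and the study's methods the arms differ in TMG and share the other steps. The 2 replicates of a group are described as biological replicates of one cell line, and no other line was used.

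O-GlcNAc is a single sugar that the enzyme OGT places on serines and threonines of nuclear and cytoplasmic proteins and that OGA takes off, so blocking OGA raises the mark on many proteins at once. Transcription factors, histones, RNA polymerase II and synaptic proteins carry it. During neural induction, stem cells first become SOX2-positive neuroepithelial progenitors with a regional identity. Proneural factors of the basic helix-loop-helix family then push progenitors out of the cycle, and young neurons switch on cytoskeletal, channel, receptor and vesicle genes.

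The totals of the 4 libraries were 10843196 and 19836878 counts for DMSO and 10334908 and 11058603 for TMG. Counts are RSEM estimates, and CPM are counts per 1000000 after TMM scaling of the 4 libraries. The cultures were neural by their markers: PAX6, a neural progenitor factor, had 426 and 328 CPM in DMSO and 438 and 243 in TMG, and OTX2, a factor of the forebrain and midbrain, had 129 and 192 against 186 and 147. Of 39 HOX genes, which mark the hindbrain and spinal cord, 38 stayed under 1 CPM in every library and 0 passed the filter. Not every defining marker was present: SOX1, an early neuroepithelial factor, was under 0.4 CPM throughout. WNT2B and LMX1A, genes of the dorsal midline, had 560 and 324, and 68.9 and 102 CPM in DMSO. TMG replicate 2 stood apart by genes of mesenchyme, the loose tissue that makes fibroblasts: 21 such genes summed to 5510 and 6910 CPM in DMSO, 7477 in TMG replicate 1 and 33810 in TMG replicate 2. Their part in any result was not tested, and list counts that move most with this library are given without it too. In bulk cultures, fewer cells of a type and less RNA per cell cannot be told apart.

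Across the transcriptome, more genes were higher than lower in the TMG-treated cultures. Of 19411 genes tested, 1535 were higher (7.91%) and 892 lower (4.60%) at an unadjusted p under 0.05 by edgeR's quasi-likelihood test, with median sizes of 1.46 and 1.07 on the log2 scale. At a false discovery rate of 5%, 0 genes passed edgeR, the lowest adjusted p being 0.0754, while DESeq2 on the same 4 libraries called 431 genes higher (2.37% of 18223) and 87 lower (0.477%). Of its 518 calls, 514 were tested by edgeR and 505 had an unadjusted p under 0.05 in the same direction by edgeR. In simulated D30 counts with 200 genes changed 4-fold, edgeR recovered 131 of them with 18 false calls and DESeq2 155 with 37. In both, false calls made up more than 5% of the calls. The simulation gave both arms the same spread, whereas the real TMG replicates differed more than the DMSO replicates. It therefore cannot give the error rate of the real calls, and DESeq2's calls may hold more than 5% false ones. Both TMG libraries lay above both DMSO libraries for 4331 genes (22.3%) and below them for 4479 (23.1%). The median over all genes was -0.01, a centre that the TMM scaling sets, so higher and lower are relative to it. A shift of the whole transcriptome cannot be seen this way. Since no gene passed edgeR, genes are described as higher or lower and DESeq2's adjusted p is named where it is used. Counts within a list are to be read against these shares of all genes: 7.91% higher, 4.60% lower, 22.3% above and 23.1% below. A gene scarcely counted in DMSO can pass the filter through TMG alone, which tilts the counts of tested members upwards.

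The gene with the lowest p was CNR1, the main cannabinoid receptor of the brain. CNR1 (ENSG00000118432, chromosome 6 of GRCh37 from 88849583 to 88876066) had 18.9 and 18.2 CPM in DMSO and 139 and 164 in TMG, so the replicates of each arm nearly coincided and the arms lay far apart (log2 fold change 3.03, standard error 0.25, adjusted p = 0.0754 by edgeR and 2.81e-20 by DESeq2). By the naming rule, 14 further genes with a higher mean follow it, each with non-overlapping groups and an adjusted p of 0.101 by edgeR. Several belong to neurons and their contacts. LHX9, a LIM homeodomain factor of thalamic and dorsal spinal neurons, went from 2.79 and 6.62 CPM to 106 and 67.9 (log2 fold change 4.18, standard error 0.48). SV2B and SV2C, proteins of synaptic vesicles, had 8.01 and 5.87 against 41.7 and 39.9, and 14.6 and 18.5 against 80.4 and 64.8 CPM. CBLN1, a secreted organizer of synapses, had 35.3 and 46.3 CPM in DMSO and 170 and 253 in TMG. CNTN2 and CNTNAP5, adhesion proteins of axons, had log2 fold changes of 2.15 (standard error 0.28) and 4.02 (0.53). KCNQ3, a subunit of the M-type potassium channel, had 1.77 and 2.29 CPM in DMSO and 14.5 and 29.4 in TMG. ONECUT2, a homeodomain factor of early neurons, had 5.68 and 9.10 against 38.3 and 45.6 CPM. Others mark pigment or metabolism. DCT, an enzyme of melanin synthesis, had 2.33 and 2.59 CPM in DMSO and 42.9 and 21.1 in TMG, and RDH10, which oxidizes retinol on the way to retinoic acid, had 19.9 and 28.9 against 130 and 128. ATP8A1, a phospholipid flippase, was at 20.3 and 20.2 CPM in DMSO and at 69.0 and 67.8 in TMG, the tightest replicates of the set. THSD7B, SPOCK3 and SH3TC2 were under 0.8 CPM in both DMSO libraries and between 6.96 and 15.3 in TMG. In RDH10 and SV2C, reads cannot be told from those of antisense genes in the same place (RDH10-AS1 with 1.96 and 2.14 against 11.7 and 6.54 CPM), since the counting is not stated to use strand. In DESeq2 on 16 libraries, where all stages share 1 estimate of the spread, the call ended for CNR1 (adjusted p = 0.091), CBLN1 (0.543), SV2B (0.238), ONECUT2 (0.211) and DCT (0.209). That estimate takes in D70, where the coefficient of variation between replicates was 0.616, against 0.295 on D30. On D70, CNR1 had 662.8 and 9.711 CPM in the TMG replicates. The part of D70 in the lost calls was not tested.

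Among genes with a lower mean, ICAM5 came first. ICAM5 (ENSG00000105376, chromosome 19 of GRCh37 from 10400628 to 10407454), an adhesion protein of telencephalic neurons, had 80.9 and 68.9 CPM in DMSO and 16.9 and 11.9 in TMG (log2 fold change -2.38, standard error 0.28, adjusted p = 0.101 by edgeR and 4.6e-09 by DESeq2, but 0.0928 by DESeq2 on 16 libraries). MFSD2A, the transporter of docosahexaenoic acid lipids, had 36.8 and 23.5 against 5.44 and 2.90 CPM. NPRL2, part of the GATOR1 complex that restrains mTORC1, had 46.7 and 50.5 CPM in DMSO and 15.1 and 10.7 in TMG. MPC1, a subunit of the mitochondrial pyruvate carrier, had 22.0 and 17.5 against 6.20 and 5.70, and CPS1, which makes carbamoyl phosphate in mitochondria, 42.9 and 40.5 against 11.3 and 16.7. PAN2, a deadenylase of messenger RNA, and UVSSA, a factor of transcription-coupled repair, had log2 fold changes of -1.36 (standard error 0.25) and -1.32 (0.25), the smallest sizes of the 15. DERL3, a protein of degradation at the endoplasmic reticulum, had 20.1 and 20.7 CPM in DMSO and 6.39 and 4.86 in TMG. EDNRB, an endothelin receptor, had 8.01 and 7.06 against 1.53 and 1.59, where OBI1-AS1 on the opposite strand had 0 and 0 against 1.62 and 1.49, and AIF1, known from microglia, 6.89 and 9.80 against 1.24 and 1.59. The remaining genes were TDRKH, which acts in the piRNA pathway, ENPP5 and ATP6AP1L, with log2 fold changes between -2.39 and -2.11, and RHCE and ISY1-RAB43. RHCE shares sequence with the near-identical RHD, and ISY1-RAB43 is a readthrough that shares exons with ISY1 and RAB43. While ISY1-RAB43 had 10.9 and 18.3 against 0.191 and 0.654 CPM, RAB43 had 25.5 and 21.4 against 34.4 and 31.6 and ISY1 had a log2 fold change of 0.35 (standard error 0.34), so the division of reads between them is uncertain. Likewise TDRKH-AS1, antisense to TDRKH, was lower (log2 fold change -1.69).

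**Figure D1:**
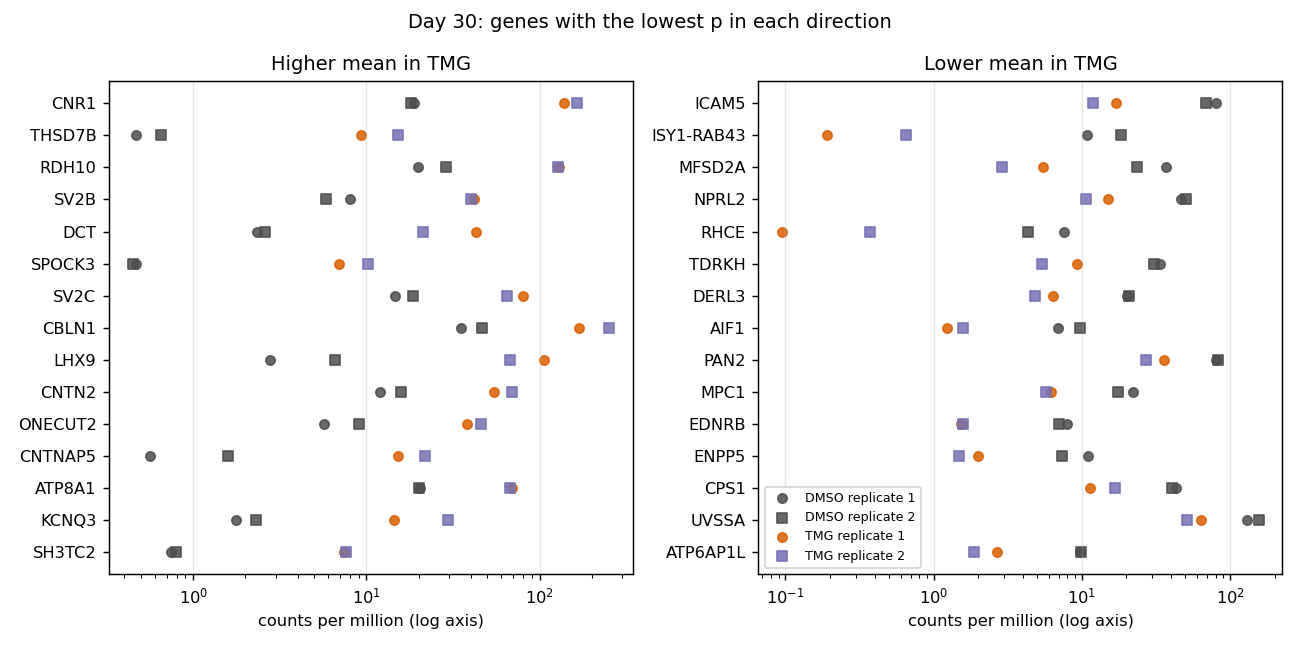
CPM in each of the 4 D30 libraries (log axis) for the 15 genes with the lowest p in each direction, ordered by p, with DMSO libraries in grey and TMG libraries in colour. By the rule the groups do not overlap for any gene, and replicates of an arm lie close together for CNR1, ATP8A1 and ICAM5.

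Genes of young neurons were often higher, and the list median lay above both DMSO libraries in both TMG libraries. Of 21 tested genes of early neuron structure, 13 were higher and 0 lower at an unadjusted p under 0.05 by edgeR, 16 had both TMG libraries above both DMSO libraries, and 9 passed DESeq2. The median log2 fold change was 1.15, and the median ratio to the DMSO mean was 0.81 in TMG replicate 1 and 1.43 in TMG replicate 2 on the log2 scale. Without TMG replicate 2, 13 were higher, where 6.30% of all genes were higher and 4.24% lower. The RNA-binding proteins ELAVL2 and ELAVL4 had 3.35 and 3.04 against 14.3 and 22.9, and 1.68 and 1.79 against 9.25 and 14.3 CPM. INA, a neurofilament, had a log2 fold change of 2.33 (standard error 0.43), and MAPT, the microtubule protein tau, of 1.72 (0.38). The most used general neuronal markers moved less: TUBB3 had 92.9 and 119 CPM against 114 and 185 (unadjusted p = 0.138 by edgeR), MAP2 had 261 and 258 against 323 and 348 (unadjusted p = 0.142 by edgeR), and RBFOX3, a marker of mature neurons, had 6.05 and 8.06 against 6.20 and 4.95.

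Many ion channel genes were higher. Of 32 voltage-gated channel genes tested, 20 were higher and 2 lower at an unadjusted p under 0.05 by edgeR, and 15 passed DESeq2, all higher. After KCNQ3, described above, CACNA2D1 had the lowest p. CACNA2D1, an auxiliary calcium channel subunit, had 22.5 and 29.5 CPM in DMSO and 77.0 and 126 in TMG. Among sodium channels, SCN2A had 1.40 and 0.945 CPM in DMSO and 6.29 and 12.6 in TMG, and SCN9A had 0.652 and 2.98 against 19.2 and 22.2. In the other direction, CACNA1B, the N-type calcium channel, had 38.0 and 31.6 CPM in DMSO and 16.4 and 21.3 in TMG. Of 32 neurotransmitter receptors, 25 were tested. Of these, 13 were higher (52.0%, against 7.91% of all genes) and 0 lower. The groups were apart upwards in 19, against 22.3% of all genes. Members scarce in DMSO, such as GRIK3 with 0.652 and 0.547 CPM, entered the test through TMG, so these counts are tilted upwards. All 32 summed to 159.7 and 178.9 CPM in DMSO and 268.5 and 437.8 in TMG. The glutamate receptors GRIA2 (2.05 and 2.19 against 10.6 and 25.7 CPM), GRIK2 and GRIK3 and the GABA receptor GABBR2 were among those with the lowest p. GRIN2B, another glutamate receptor, had 24.9 and 20.2 against 26.9 and 27.1. Without TMG replicate 2, 18 channels and 10 receptors were higher by the same threshold.

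The release machinery was mixed. Of 22 tested genes of synaptic vesicles and release, 5 were higher and 3 lower, with a median log2 fold change of 0.44, and without TMG replicate 2, 4 were higher and 1 lower with a median of 0.26. SYN2, a synapsin, and SYP, synaptophysin, had log2 fold changes of 1.70 (standard error 0.42) and 1.72 (0.46), both called by DESeq2 (adjusted p = 0.0327 and 0.0409), though SYP was not on 16 libraries (adjusted p = 0.128 by DESeq2). RAB3A, STX1A and SYNGR3 were lower at between -1.03 and -0.75. Of 27 granins and neuropeptides, 18 were tested, 5 of them higher and 1 lower. The median was 1.07, and 0.72 without TMG replicate 2. All 27 summed to 820.6 and 1132 CPM in DMSO and 679.1 and 2741 in TMG, so the summed level did not follow the arms. PCSK2, a prohormone convertase, had 0.745 and 1.54 CPM in DMSO and 8.96 and 24.0 in TMG, and CHGA, the granin of dense-core vesicles, 0.0931 and 0.647 against 4.58 and 20.2. Of 40 genes of axon guidance, 10 were higher and 1 lower, and 8 and 0 without TMG replicate 2. PLXNA4, a semaphorin receptor, had 3.35 and 6.17 CPM in DMSO and 41.6 and 142 in TMG (log2 fold change 4.24, standard error 0.73, adjusted p = 2.67e-10 by DESeq2), and SEMA6D had 9.03 and 9.35 against 27.6 and 44.8. SLIT2, a repellent, was the lower one with 585 and 499 against 374 and 245 CPM.

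Several factors that start neurogenesis were higher, with the larger values in TMG replicate 2. Of 16 proneural and intermediate progenitor genes, 14 were tested. Of these, 8 were higher and 0 lower, and 5 passed DESeq2. All 16 summed to 99.51 and 117.3 CPM in DMSO and 142.9 and 243.8 in TMG. NEUROD4, a proneural factor, had 0.279 and 1.14 CPM in DMSO and 6.77 and 19.4 in TMG (log2 fold change 4.07, standard error 0.78, adjusted p = 1.11e-05 by DESeq2 on 4 libraries and 0.0928 on 16). INSM1, a zinc finger factor of newborn neurons, had 4.56 and 7.31 against 17.8 and 44.9 CPM, and NEUROG2, another proneural factor, 0.372 and 0.497 against 1.33 and 10.3. Without TMG replicate 2, 4 were higher and the median went from 1.77 to 0.94. Of 14 projection neuron genes, 5 were higher and 0 lower. SLC17A6, the vesicular glutamate transporter of subcortical and young neurons, had 0.559 and 1.59 against 7.44 and 13.2 CPM, while SLC17A7, its cortical counterpart, had 9.78 and 9.25 against 8.77 and 10.3. TBR1, a factor of deep cortical layers, had a log2 fold change of 2.33 (standard error 0.65). The median of the projection neuron list was 0.57 in TMG replicate 1 and 2.42 in TMG replicate 2. Cajal-Retzius genes, of the early neurons that leave the dorsal midline, had the higher median in TMG replicate 1 instead, with 1.35 and 1.12. Of 10 of them, 6 were higher and 1 lower, with EBF3 at 4.56 and 4.68 against 13.3 and 29.6 CPM and RELN, the reelin they secrete, at 175 and 137 against 411 and 231.

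Progenitor genes were mixed, and forebrain genes were lower more often than higher. Of 18 tested neural progenitor genes, 4 were lower and 2 higher, and DESeq2 called 1 in each direction. The higher one was SLC1A3, a glutamate transporter of radial glia, with 3.44 and 3.63 CPM in DMSO and 8.49 and 43.5 in TMG (adjusted p = 0.00202 by DESeq2). SOX2, the core factor of the neuroepithelium, had 123 and 155 CPM in DMSO and 68.0 and 37.5 in TMG (log2 fold change -1.40, standard error 0.33, adjusted p = 0.213 by edgeR, 0.0115 by DESeq2 and 0.0702 by DESeq2 on 16 libraries). HES5 and NOTCH1, effector and receptor of Notch, had 30.6 and 11.8 against 8.68 and 7.47, and 278 and 262 against 189 and 175 CPM. NES and VIM, filament proteins of progenitors, had log2 fold changes of -0.22 and 0.31 (unadjusted p = 0.374 and 0.368 by edgeR). Of 17 tested forebrain genes, 6 were lower (35.3%, against 4.60% of all genes) and 1 higher. In 10, both TMG libraries lay below both DMSO libraries, against 23.1% of all genes. FEZF2, a factor of forebrain progenitors and deep-layer neurons, had 45.3 and 83.1 CPM in DMSO and 25.9 and 12.4 in TMG (log2 fold change -1.75, standard error 0.45, adjusted p = 0.26 by edgeR, 0.0109 by DESeq2 and 0.666 by DESeq2 on 16 libraries). EMX2, a factor of the dorsal telencephalon, had means of 72.3 CPM in DMSO and 34.8 in TMG, with groups that did not overlap. SIX3, a factor of the anterior forebrain, was lower in both TMG libraries and lowest in TMG replicate 2, with 39.9 and 47.5 against 19.9 and 4.39 CPM. Without TMG replicate 2, 8 forebrain genes were lower and 0 higher.

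**Figure D2:**
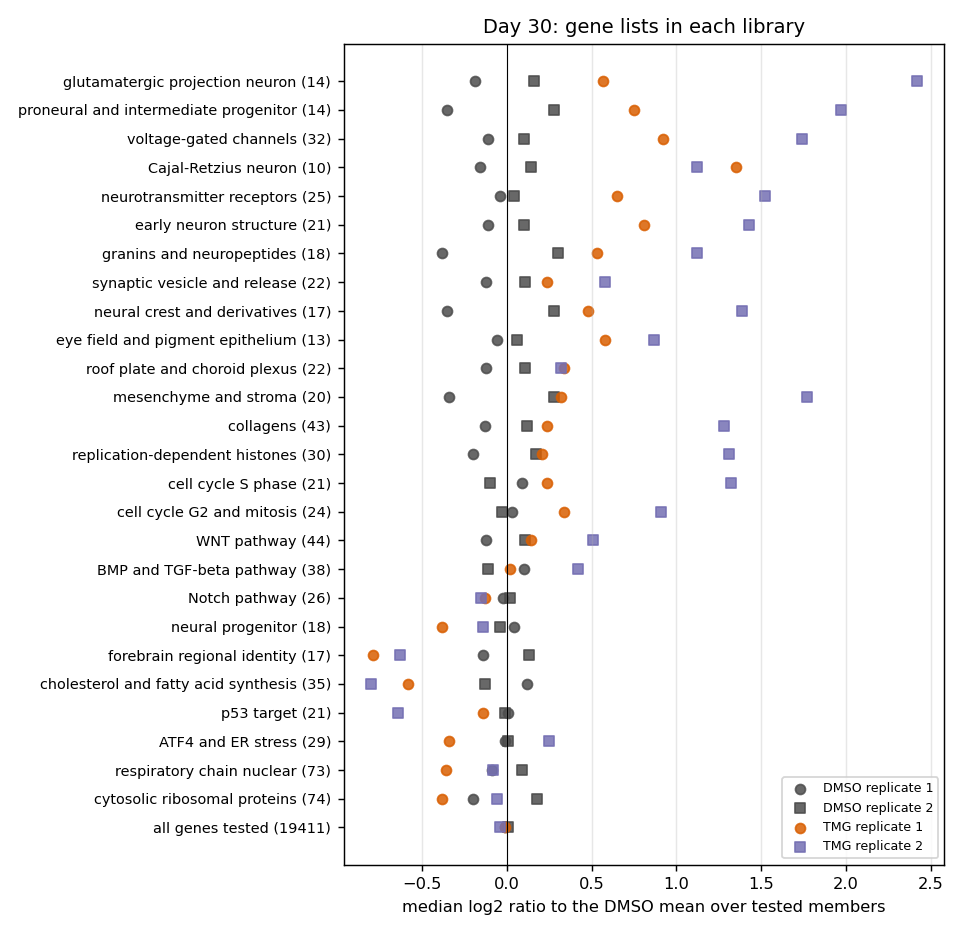
Median log2 ratio to the DMSO mean over the tested members of 26 gene lists and over all genes tested, for each D30 library, with the number tested in brackets and 0.5 CPM added to each value. Neuronal lists lie to the right of both DMSO libraries in both TMG libraries, the cholesterol and forebrain lists to the left, and mesenchyme, collagens, histones and S phase are far right in TMG replicate 2 and close to the DMSO libraries in TMG replicate 1.

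Some genes of the dorsal midline, the neural crest and pigment cells were higher, and most members did not pass the threshold. Of 22 tested roof plate and choroid plexus genes, 7 were higher and 0 lower and 1 passed DESeq2, with nearly equal medians of 0.34 and 0.32 in the TMG libraries. MSX1, a roof plate factor, had 8.75 and 15.6 CPM in DMSO and 54.5 and 109 in TMG, and WNT2B had 560 and 324 against 1040 and 620. LMX1A overlapped between the arms (68.9 and 102 against 117 and 61.8 CPM, log2 fold change 0.07). TTR, the main product of the choroid plexus, overlapped between the arms (36.1 and 172 against 139 and 260 CPM). Of 20 neural crest genes, 17 were tested, 7 of them higher and 0 lower. The median was 1.25, and 0.50 without TMG replicate 2. All 20 summed to 259.1 and 317.3 CPM in DMSO and 465.8 and 869.9 in TMG. PAX3, an early crest and dorsal neural factor, had 47.9 and 78.9 against 172 and 157 CPM, and POU4F1, a factor of sensory neurons, had 0.186 and 0.597 against 7.72 and 4.95. Of 18 eye field and pigment genes, 13 were tested, 6 of them higher and 0 lower. All 18 summed to 219.8 and 212.4 CPM in DMSO and 363.2 and 269.3 in TMG. TYR, tyrosinase, had 0.652 and 0.398 against 5.53 and 6.07 CPM, and MITF, the factor that turns on both TYR and DCT in pigment cells, had means of 13.2 against 25.7.

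Signals that pattern the dorsal side had members in both directions. Of 44 tested WNT pathway genes, 16 were higher and 2 lower at an unadjusted p under 0.05 by edgeR. Among ligands, WNT1 had 2.14 and 5.07 against 8.77 and 17.6 CPM and WNT3A had 14.1 and 13.9 against 27.7 and 22.6, while WNT7B was lower with 81.8 and 75.8 against 39.9 and 24.8. The receptor FZD10 had 1.68 and 4.63 against 15.9 and 62.9 CPM. AXIN2, a direct target that feeds back on the pathway, had 37.7 and 58.9 CPM in DMSO and 110 and 206 in TMG (log2 fold change 1.71, standard error 0.38, adjusted p = 0.00296 by DESeq2), and FRZB, a secreted inhibitor, had 14.2 and 11.7 against 43.3 and 96.3. Of 38 BMP and TGF-beta genes, 9 were higher and 3 lower. The ligand BMP4 had 26.1 and 22.3 against 48.9 and 41.1 CPM, the receptor BMPR2 84.5 and 100.1 against 157 and 308, and the receptor BMPR1B, in the other direction 33.3 and 18.3 against 11.6 and 5.51. Of 26 Notch pathway genes, 4 were higher (15.4%, against 7.91% of all genes) and 3 lower (11.5%, against 4.60%). The median was -0.19, and -0.14 without TMG replicate 2. The ligand DLL1 had means of 52.2 against 21.9 CPM and DLL3, a ligand that acts within the cell, 1.86 and 4.33 against 9.06 and 17.5. Of 16 tested retinoic acid genes, 6 were higher and 2 lower, with medians of -0.02 in TMG replicate 1 and 0.92 in TMG replicate 2. STRA6, which imports retinol, RDH10 and ALDH1A3, which make retinoic acid, were higher, and the carriers CRABP1 (124 and 76.1 against 44.2 and 13.6 CPM) and CRABP2 were lower. Of 30 genes of cyclic AMP signalling, 9 were higher and 1 lower. ADCY1, a calcium-stimulated adenylyl cyclase of neurons, had 20.2 and 23.1 CPM in DMSO and 67.0 and 79.7 in TMG, while ADCY2, another cyclase, had 66.6 and 69.8 against 39.8 and 38.8.

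Some genes of stem cells and epithelium were higher, several of them from under 1 CPM in DMSO. POU5F1, the stem cell factor OCT4, had 0.0931 and 0.398 CPM in DMSO and 8.96 and 5.42 in TMG (log2 fold change 4.66, standard error 0.67, adjusted p = 3.25e-06 by DESeq2). ESRG, a noncoding RNA of stem cells, had 0.186 and 0.348 against 7.34 and 2.06, TDGF1 0.0931 and 0.249 against 4.67 and 1.21, NANOG 0.186 and 0.149 against 1.05 and 1.21, and DNMT3B, a DNA methyltransferase, 8.19 and 10.3 against 25.5 and 21.3 CPM. Reads of POU5F1 and NANOG can be shared with their pseudogenes. Of 11 tested stem cell genes, 5 were higher and 0 lower, while 7 of 14 were higher and 5 lower without TMG replicate 1, and LIN28A (20.4 and 12.1 against 26.6 and 5.88 CPM) and SALL4 (58.2 and 58.8 against 37.9 and 12.2) were not among them. POU5F1, ESRG, TDGF1 and NANOG, under 0.4 CPM in both DMSO libraries, entered the test only through the TMG libraries. The count of tested members is thus tilted towards higher genes and does not describe the whole list. The 19 genes matched summed to 213.8 and 167.9 CPM in DMSO and 226.6 and 115.4 in TMG, so the summed level did not follow the arms. TP63, the factor of surface ectoderm, had 0 and 0.0498 against 3.34 and 2.43 CPM, and CDH1, the epithelial cadherin, 3.44 and 2.29 against 14.9 and 6.07. For POU5F1, ESRG, TDGF1, NANOG and TP63, whose DMSO levels were under 1 CPM, the size of the fold depends on a few counts. The same holds for other genes given above with under 1 CPM in both DMSO libraries, among them CHGA, NEUROG2, POU4F1, GRIK3, THSD7B and SPOCK3.

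Genes of cholesterol and fatty acid synthesis were lower more often than higher. When sterols run short, the factor SREBP2 leaves the endoplasmic reticulum for the nucleus and turns on the enzymes of the mevalonate pathway, and SREBP1 does the same for fatty acid enzymes. Of 35 genes of the list, 13 were lower and 1 higher at an unadjusted p under 0.05 by edgeR, 22 had both TMG libraries below both DMSO libraries, and 3 passed DESeq2, all lower. The members summed to 8344 and 5990 CPM in DMSO and to 4671 and 3727 in TMG. Medians were -0.58 and -0.80 in the TMG libraries and 0.12 and -0.13 in the DMSO libraries, and without TMG replicate 2, 11 were lower. Among the regulators, SREBF2, the gene of SREBP2, had 446 and 464 CPM in DMSO and 300.2 and 261 in TMG, and INSIG1, which holds SREBP back and is also its target, had 236 and 158 against 127 and 59.2. In the mevalonate pathway, HMGCS1, an early enzyme, had 938 and 530 against 467 and 205 CPM, with wide control replicates and an unadjusted p = 0.0538 by edgeR. FDPS, which makes farnesyl pyrophosphate, had 106 and 93.3 against 58.6 and 56.8, and FDFT1, squalene synthase, 310 and 241 against 152 and 120 CPM (log2 fold change -1.02, standard error 0.26, adjusted p = 0.0364 by DESeq2). Later sterol enzymes included DHCR7 with 111 and 80.6 against 53.7 and 46.6. SCD, the stearoyl-CoA desaturase, had 1420 and 892 CPM in DMSO and 521 and 318 in TMG (log2 fold change -1.47, standard error 0.35, adjusted p = 0.00756 by DESeq2 and 0.126 by DESeq2 on 16 libraries). FADS2, a desaturase of polyunsaturated fatty acids, had 385 and 332 against 177 and 195 (adjusted p = 0.0317 by DESeq2 and 0.0746 by DESeq2 on 16 libraries). Of the 3 calls, only FDFT1 passed on 16 libraries (adjusted p = 0.0089 by DESeq2). The list was not uniform, and LSS, MVK and ACAT2 had log2 fold changes between -0.06 and 0.02.

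The stretch of 250 bases before the start of SCD and of FDPS is shown because both genes were lower in both TMG libraries and because their promoters hold a motif that most promoters of the list share. Capitals mark CCAAT on either strand (ATTGG on the printed one), the box bound by NF-Y, which works beside SREBP at sterol genes. Sequences are RefSeq's on GRCh38.p14, SCD at chr10:100346983-100347232 and FDPS at chr1:155308616-155308865, both on the plus strand.
SCD: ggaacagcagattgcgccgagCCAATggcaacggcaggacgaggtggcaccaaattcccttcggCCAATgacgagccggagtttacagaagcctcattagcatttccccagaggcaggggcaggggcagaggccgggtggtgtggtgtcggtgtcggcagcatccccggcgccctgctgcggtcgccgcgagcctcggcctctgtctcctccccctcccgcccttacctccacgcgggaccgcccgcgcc
FDPS: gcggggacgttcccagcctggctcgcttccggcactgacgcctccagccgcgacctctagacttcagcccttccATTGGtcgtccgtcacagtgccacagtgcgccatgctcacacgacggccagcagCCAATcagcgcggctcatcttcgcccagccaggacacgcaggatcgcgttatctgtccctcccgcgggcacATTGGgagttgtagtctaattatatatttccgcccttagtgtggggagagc
In promoters of 300 bases, 250 before and 50 after the start, CCAAT on either strand was found in 23 of 33 promoters of 26 matched cholesterol and fatty acid genes (69.7%) and in 34.6% of all 35116 promoters. Among genes lower at an unadjusted p under 0.05 it was in 40.1% of promoters, among higher genes in 31.9% and among all genes tested in 34.2%. It was not particular to the lower list: the replication-dependent histones, of which 13 were higher and 0 lower, held it in 31 of 34 promoters (91.2%). The sterol element core TCACCCCAC was in 1 of the 33 (3.03%) and in 0.43% of all promoters, in 0.814% for lower genes, 0.0608% for higher genes and 0.392% for all genes tested. The E-box CAGATG, which proneural factors can bind, was in 13.1% of the promoters of higher genes, 10.6% of those of lower genes, 10.8% of those of all genes tested and 14.7% of all promoters, and the cyclic AMP element TGACGTCA in 2.25%, 3.26%, 2.61% and 1.85%. Matches are letters in a window and say nothing of binding.

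**Figure D3:**
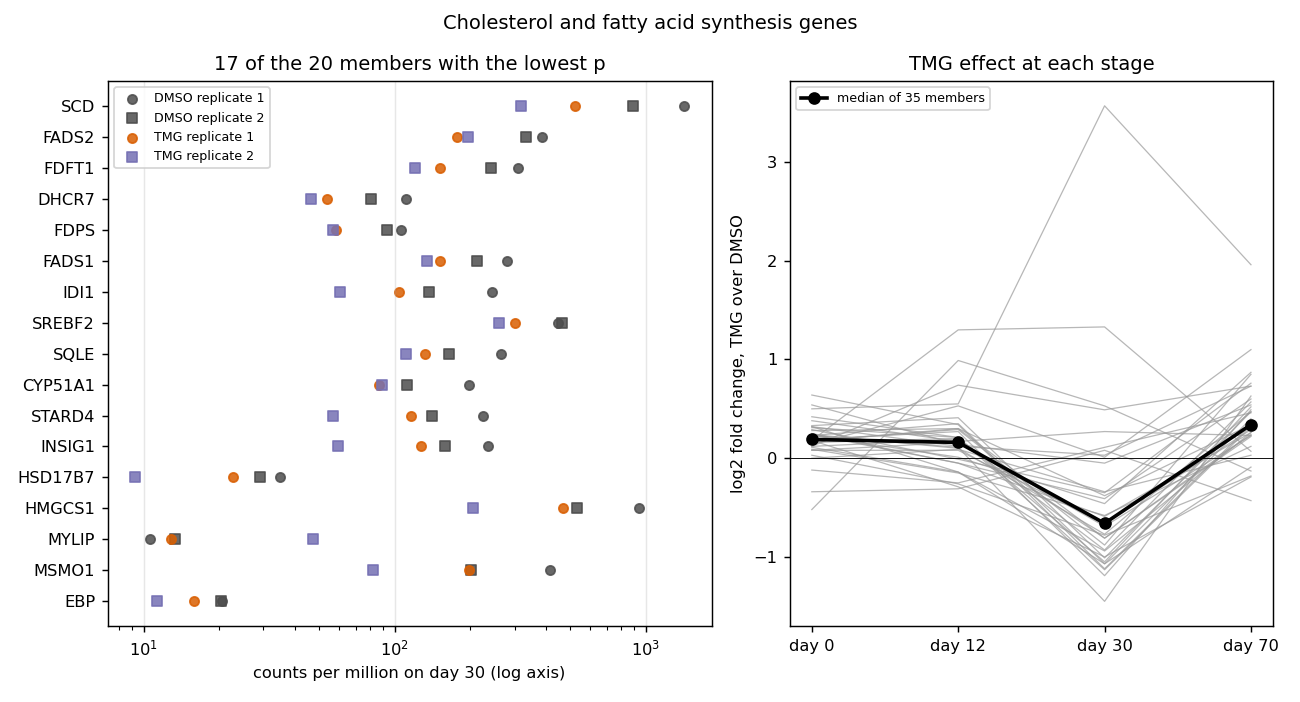
Left, CPM in each D30 library (log axis) for 17 of the 20 cholesterol and fatty acid genes with the lowest p; right, log2 fold change of TMG over DMSO at each stage for each of 35 genes (grey) and their median (black), from the fit of 16 libraries. The median is -0.66 on day 30 and 0.19, 0.16 and 0.34 on days 0, 12 and 70.

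The effect on D30 was compared with the mean of the effects on D0, D12 and D70, each stage having its own controls. D70 had the widest spread between replicates (coefficient of variation 0.616, against 0.295 on D30), and this spread enters the comparison. Over 24249 genes, 807 had a higher effect on D30 (3.33%) and 515 a lower one (2.12%) at an unadjusted p under 0.05 by edgeR. At 5% false discovery edgeR called 0 of them, against 1322 with an unadjusted p under 0.05, while DESeq2 on 16 libraries called 54 (0.330% of 16377). Of the 35 cholesterol and fatty acid genes, 17 had a lower effect on D30 by the edgeR threshold and 0 a higher one. FDFT1 passed DESeq2 for this difference (adjusted p = 0.00221), with log2 fold changes of 0.33, 0.41, -1.01 and 0.47 on D0, D12, D30 and D70. Of the 54 calls, 26 had a higher and 28 a lower effect on D30, and 51 had groups that did not overlap on D30. Among the higher effects, CRYBB1 and DSG3 had at most 0.187 CPM in any D30 library, so their calls rest on almost no D30 counts. ENSG00000183086, among the lower effects, had a D30 log2 fold change of 0.23 with overlapping groups, against 9.54 on D0 and 8.99 on D70. GBF1, which loads ARF proteins at the Golgi, shared the lowest adjusted p with POU5F1 (8.63e-08 by DESeq2), with 237 and 246 CPM in DMSO and 145 and 134 in TMG on D30 and log2 fold changes between -0.02 and 0.02 at the other stages. Of the 28 calls with a lower effect on D30, 5 more are given as examples, picked after their values were seen and with no test of a shared function. ARF1, the GTPase that GBF1 activates, had 395 and 434 against 299 and 258 CPM. YIPF2 and YIF1A, membrane proteins of the early secretory pathway, had 85.7 and 85.1 against 40.0 and 29.3, and 56.9 and 50.6 against 20.2 and 24.2. GOLGA1, a golgin, had 58.4 and 58.1 against 28.0 and 22.7, and SRPRA, a subunit of the receptor for the signal recognition particle, 258 and 252 against 128 and 91.3 CPM. Among the calls with a higher effect on D30 were POU5F1, ESRG, TDGF1 and PLXNA4. PLXNA4 had log2 fold changes of 0.26, 0.46, 4.26 and 1.25 on D0, D12, D30 and D70, and POU5F1 of -0.01, -0.61, 4.65 and 0.27.

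**Figure D4:**
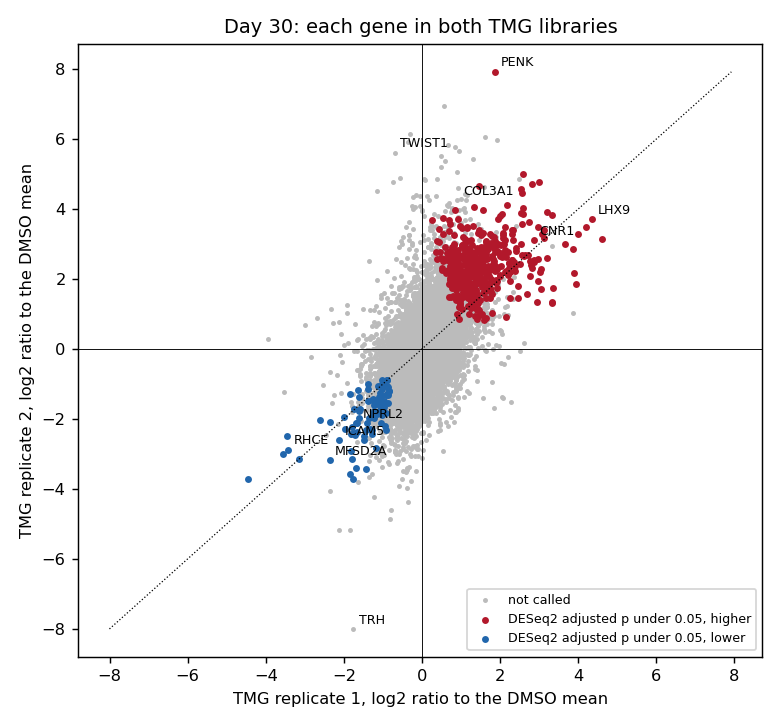
Log2 ratio to the DMSO mean (0.5 CPM added) of each of 19411 genes in TMG replicate 1 (x axis) and TMG replicate 2 (y axis), with genes at a DESeq2 adjusted p under 0.05 in red (higher) and blue (lower); the dotted line marks equal ratios. CNR1 and LHX9 lie near the line, whereas PENK, COL3A1, TWIST1 and TRH lie far from it through TMG replicate 2.

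Genes of protein folding, the respiratory chain and ribosomes had lower medians in TMG replicate 1 than in the other libraries. Of 29 tested ATF4 and endoplasmic reticulum stress genes, 4 were lower and 1 higher, with medians of -0.34 in TMG replicate 1 and 0.25 in TMG replicate 2, so the direction depended on the library. With TMG replicate 2 left out, 8 were lower and 1 higher. Without TMG replicate 1, 12 were higher and 2 lower, where 15.6% of all genes were higher and 13.5% lower. HSPA5, the main chaperone of the endoplasmic reticulum, had 804 and 642 against 359 and 467 CPM, and DDIT3, a stress factor, 19.8 and 21.5 against 9.44 and 10.4. SLC7A11, the cystine transporter, was higher with 12.6 and 8.41 against 26.3 and 46.0. Of 73 nuclear genes of the respiratory chain, 3 were lower and 0 higher. The lower share, 4.11%, is no more than the 4.60% of all genes. In 27, both TMG libraries lay below both DMSO libraries, and in 3 above, against 23.1% and 22.3% of all genes. The median was -0.23, and -0.38 without TMG replicate 2. NDUFB4, a subunit of complex I and the member with the lowest p, had 34.3 and 37.4 against 21.5 and 20.4 CPM. Of 74 cytosolic ribosomal protein genes, 18 were below, a share near the 23.1% of all genes, and 0 above. At an unadjusted p under 0.05 by edgeR 1 was lower, and 7 without TMG replicate 2, and the medians were -0.38 and -0.06 in the TMG libraries and -0.20 and 0.18 in the DMSO libraries. Of 31 genes of glycolysis and hypoxia, 6 were lower and 0 higher. Leaving out TMG replicate 2 gave 2 lower and 0 higher, and leaving out TMG replicate 1 gave 11 lower and 5 higher. Among the 6 was ALDOC, the brain aldolase, with means of 27.5 CPM in DMSO and 7.87 in TMG. Of 21 p53 targets, 5 were lower (23.8%, against 4.60% of all genes) and 0 higher. CDKN1A, the cycle inhibitor p21, had 279 and 289 against 182 and 81.7 and GDF15, a secreted stress factor, 36.1 and 40.5 against 13.9 and 3.08, both lowest in TMG replicate 2, and 2 targets were lower without that library.

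Some genes of the cell cycle and of connective tissue were higher, mainly through TMG replicate 2. Of 24 genes of G2 and mitosis, 23 had both TMG libraries above both DMSO libraries and 8 were at an unadjusted p under 0.05, with medians of 0.34 and 0.91. MKI67, a marker of dividing cells, had 49.7 and 56.1 CPM in DMSO and 76.5 and 204 in TMG, and ASPM, a spindle protein of progenitors, 43.9 and 40.2 against 66.6 and 119. Of 21 S phase genes 7 were higher, and MCM4, a helicase subunit, had a mean of 13.8 CPM in DMSO, 25.1 in TMG replicate 1 and 85.4 in TMG replicate 2. Of 30 tested replication-dependent histone genes, whose near-identical copies can share reads, 13 were higher and 0 lower, with H3C15 at 20.9 and 20.2 against 32.1 and 139 CPM. Without TMG replicate 2, 1 gene of each of these lists was higher. Of 20 tested mesenchyme genes 4 were higher, and 0 without TMG replicate 2. DCN, decorin, had 1.02 and 10.1 against 22.5 and 377 CPM, and COL3A1, a fibrillar collagen, 176 and 938 against 1040 and 10600. TWIST1, a factor of mesenchyme and crest, had 0.0931 and 3.63 CPM in DMSO, 0.954 in TMG replicate 1 and 115 in TMG replicate 2. Of 43 collagens, 15 were higher and 1 lower, and 8 were higher without TMG replicate 2. COL17A1, a collagen of epithelial attachment, was higher in both TMG libraries (1.58 and 2.14 against 18.7 and 10.4 CPM), as were COL9A2 and COL9A3 of cartilage. Of 30 basement membrane and matrix genes, 9 were higher and 0 lower. The list's median log2 fold change was 0.77, against 0.35 without TMG replicate 2 and 1.1 without TMG replicate 1. LAMB1, a laminin, had 237 and 244 against 368 and 612 CPM.

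The TMG replicates differed from each other by more than the DMSO replicates. A difference of more than 4-fold between replicates, with 0.5 CPM added, was seen for 427 genes in TMG and 86 in DMSO. PENK, the precursor of enkephalins, had 3.54 and 13.2 CPM in DMSO, 32.2 in TMG replicate 1 and 2150 in TMG replicate 2, and the standard error of its log2 fold change was 2.53. TRH, thyrotropin-releasing hormone, and FEZF1, a relative of FEZF2, went down the same way, with 452 and 715 against 172 and 1.77, and 120 and 132 against 34.8 and 2.99 CPM. When TMG replicate 1 was left out, edgeR called 3819 genes, and without TMG replicate 2 it called 512. Of the genes tested in both fits, 379 were called in both, 299 of them higher and 74 lower in both. Of DESeq2's 518 calls, 510 were called by edgeR without TMG replicate 1 and 302 without TMG replicate 2, 241 by DESeq2 on 16 libraries and 221 by edgeR with the replicate number as a term, each in the same direction.

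Long genes were higher more often than short ones. Of 14717 protein-coding genes, split by genomic span into 5 classes of like size, the longest class, from 108.9 to 2474 kilobases, had a median of 0.19 on the log2 scale, and 18.2% of its genes were higher and 2.17% lower at an unadjusted p under 0.05 by edgeR. In the shortest class, up to 10.9 kilobases, the median was -0.09, with 5.30% higher and 8.05% lower. The longest class had medians of 0.14 and 0.21 in the TMG libraries and 0.01 and -0.01 in the DMSO libraries, and its medians at the other stages were 0.03 on D0, 0.10 on D12 and -0.01 on D70. The shortest class also differed between the DMSO replicates, with -0.10 and 0.09. Some neuronal genes named above are long, such as CNTNAP5 and GRIK2, and how far span and the neuronal lists overlap was not tested.

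**Figure D5:**
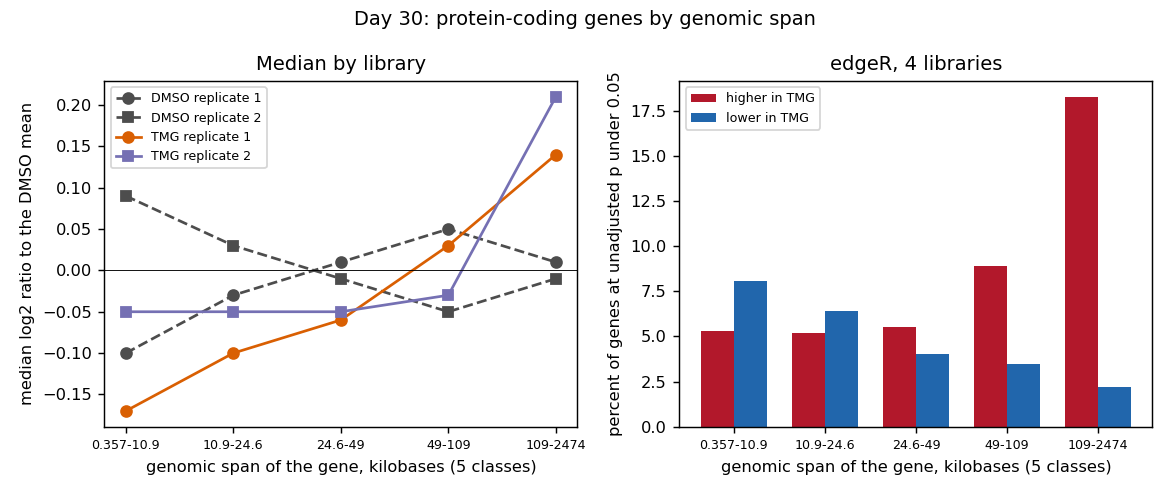
Protein-coding genes in 5 classes of genomic span (kilobases): left, median log2 ratio to the DMSO mean in each D30 library; right, percent of genes under an unadjusted p of 0.05 by edgeR. Both TMG libraries are above both DMSO libraries in the longest class, where 18.2% of genes are higher.

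Of the enzymes of the mark itself, OGT was higher in both TMG libraries, with 430 and 410 CPM in DMSO and 587 and 710 in TMG (log2 fold change 0.63, standard error 0.24, unadjusted p = 0.0331 by edgeR). It did not pass DESeq2 on 4 libraries (adjusted p = 0.268) and passed it on 16 (adjusted p = 0.00127). The groups overlapped for OGA, the target of TMG, with 396 and 399 against 493 and 388 CPM. GFPT1, the entry enzyme of hexosamine synthesis, had 462 and 314 against 269 and 185. Of 16 genes of O-GlcNAc and hexosamine metabolism, 1 was higher (6.25%, against 7.91% of all genes) and 2 lower (12.5%, against 4.60%). With so few genes these shares say little about the list. The median was -0.20, and -0.18 without TMG replicate 2. Of 13 tested astroglia and oligodendroglia genes, 2 were higher, SLC1A2, a glutamate transporter, with 6.14 and 7.86 against 27.8 and 58.8 CPM, and MBP, while GFAP, the astrocyte filament, stayed between 0.745 and 1.62 CPM. Without TMG replicate 2, 2 were higher and 3 lower. Of 13 tested epithelium genes, 4 were higher and 0 lower, with opposite medians of 0.93 and -0.44 in the TMG libraries, and 8 were higher and 0 lower without TMG replicate 2, but 4 higher and 5 lower without TMG replicate 1. The other 18 lists, from interferon to zinc finger genes, held 737 tested genes, of which 5.02% were higher and 3.12% lower, against 7.91% and 4.60% of all genes. Zinc finger genes were 439 of the 737. Among the small lists, midbrain and hindbrain had 10 of 24 genes tested and 11 under 1 CPM in all 4 libraries. Of the 10, 5 were higher and 0 lower, with medians of 0.56 and 1.51 in the TMG libraries. GABA and ventral forebrain had 9 of 20 tested, 3 higher and 3 lower. Such counts cover only members that passed the filter, which TMG alone can bring about, and do not describe the whole lists.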

How the data were processed

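RNA-seq counts of 16 H9 libraries were used, of which the 4 of D30 carry the results. The authors aligned reads of rRNA-depleted RNA with bowtie2 to hg19 and estimated counts with RSEM v1.2.12 on Ensembl GRCh37.p13. The deposited values are estimated counts, as whole numbers; how they were rounded and whether strand was used is not given in the sources used here. Names were found for 43484 of 57736 genes, and 1890 share a name with a gene of more counts. Libraries were grouped by title. Genes passing filterByExpr (minimum count 10, minimum total 15) were tested on 4 libraries with edgeR 4.0.16 (TMM, robust quasi-likelihood F-test, 2 residual degrees of freedom, Benjamini-Hochberg at 5%). A gene scarcely counted in an arm can pass this filter through the other arm alone, which tilts the counts of tested list members towards changed genes. Standard errors come from the fold change and its F statistic. DESeq2 1.42.0, limma 3.58.1 (R 4.3.3) and Python with pandas were the other tools, and the tests were run on simulated data. Between replicates, the chi-square of counts per degree of freedom was 29.8 for DMSO and 60.4 for TMG, where counting noise alone gives about 1.

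The members and lists, 55 lists from general knowledge of which 1 without matched genes was left out, were chosen with earlier results of these data known. Named genes are the 15 with the lowest p in each direction (at least 5 CPM in the higher group, groups apart), up to 5 per list, FEZF2, SOX2, NEUROD4, genes that define a list, and some named after their values were seen. Alternatives were RLE normalization, no filter, DESeq2, fits of 16 libraries, the replicate number as a block and each library left out. Promoters were matched by symbol. P-values measure the spread between the replicates described. Some genes are not reported here.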

Additional observations from a re-analysis of the deposited data

Results flagged for a closer look

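DESeq2 called 54 genes whose TMG effect on D30 differed from the mean effect at the other stages, while edgeR called 0 of them at the same rate. In a few of the genes named by p, every library lay on the other side at another stage than on D30, a difference that was not tested for these stages one by one. EDNRB, lower on D30, had log2 fold changes of 0.51 on D0 and 1.48 on D12. MPC1, lower on D30, had 0.56 on D12. CBLN1 and CNTN2, higher on D30, had -0.61 and -0.31 on D0.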

How the results depend on the processing

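edgeR called 0 genes at 5% false discovery, whereas 812 were called with no filter on low counts (607 higher, 205 lower), 518 by DESeq2 on 4 libraries (431 and 87), 592 by DESeq2 on 16 libraries (374 and 218) and 294 when the replicate number entered as a block (244 and 50). RLE normalization, edgeR on 16 libraries and limma voom called 0. With each library left out, the count ran from 0 to 3819, with 0 to 2206 higher and 0 to 1613 lower. Where an arm keeps 1 library, it is assumed to vary like the other arm. The replicate differences of the arms had a correlation of 0.293. With 2 pairs and no label that ties equal numbers to a shared culture or day, the pairing was not settled, and the block is given as an alternative only. At an unadjusted p under 0.05, chosen as an alternative after seeing the data, 3230 genes were higher and 2796 lower without TMG replicate 1, and 1281 and 863 without TMG replicate 2. With no filter, 6984 genes had both TMG libraries above both DMSO libraries and 6711 had both below. With RLE normalization these counts were 4446 and 4355, so in both settings the order of the main counts (4331 and 4479) turned. The difference between stages gave 54 calls by DESeq2. Of 218 named genes, 213 kept their direction under every alternative. Of 605 list medians under the alternatives, 111 moved by more than the SD between the TMG libraries' medians and 40 had the opposite sign. With each library left out, the log2 fold change ran from -0.29 to 1.64 for CLDN7 and from -0.03 to 0.3 for OGA (both lowest without TMG replicate 1), from -0.46 to 0.45 for LMX1A (-0.17 without DMSO replicate 1, -0.46 without TMG replicate 1), from -0.63 to 0.21 for PAX6 (0.07 without DMSO replicate 1, 0.21 without TMG replicate 2) and from -1.08 to 9.1 for TWIST1 (lowest without TMG replicate 2). The cause was not tested.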
